A study of Homo sapiens with 6 samples.

Results

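The alpha-arrestins are a human family of 6 genes, TXNIP and ARRDC1 to ARRDC5, described here with MLXIP and MLX, which encode the partners of a glucose-sensing transcription factor. These 8 genes were taken by name from a table of 39554 gene IDs. MLXIP is listed with a scaffold suffix and was matched by its Entrez ID, so that 7 of the 8 names matched exactly. They were proposed with the measured differences between the groups compared here known, among them that of ARRDC3, and so count as selected on those values. The data are RNA-seq counts and FPKM values of the human colorectal cancer cell line SW620, collected 72 h after small interfering RNAs (siRNAs) were transfected. Of the 6 libraries, 3 had received a control siRNA (siNC, genotype label WT) and 3 one directed at SOWAHA (siSOWAHA, genotype label SOWAHA knockdown). All were grown in DMEM with serum and antibiotics and transfected with the same reagent. The labels give neither the glucose content of the medium nor the siRNA sequences, and do not say whether libraries came from separate cultures, so any p-value covers the spread among 3 libraries a group, part or all of which could be technical. The study is about SOWAHA, as a cancer suppressor in metabolic reprogramming.

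Most arrestins of this family are known as adaptors that bind membrane proteins. Through short PPxY motifs in their tails, such adaptors bring ubiquitin ligases of the NEDD4 family to these proteins. This leads to uptake and breakdown of the cargo. TXNIP also binds and inhibits thioredoxin and lowers glucose uptake by removing glucose transporters from the cell surface. Transcription of TXNIP and ARRDC4 is driven by glucose through MLXIP (MondoA) or its relative MLXIPL (ChREBP), which bind DNA with MLX at carbohydrate response elements, made of a pair of E-box-like units 5 bases apart.

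The promoter of TXNIP is shown because it holds such a pair. Windows of 300 bases, from 250 before to 50 after an annotated start, were read from RefSeq (GRCh38.p14) for 7 of the 8 genes, with 10 windows in all. They were searched for 2 units, each CACGNG or CNCGTG, with 5 bases between them, a search that reads the same on both strands. A match was found in 1 of the 10 windows, that of TXNIP (chr1:145996530-145996829, minus strand), from 88 to 72 bases before the start. Of 35116 windows of this length over all genes, 27 (0.077%) held such a pair. The E-box CACGTG, also the same on both strands, was found in the windows of ARRDC4 (chr15:97960453-97960752, plus strand), 210 to 205 bases before the start, and of MLX, 50 to 45 bases before it, and in 7.26% of all windows. The 7 bases GTAAACA, a core recognised by forkhead factors and chosen after the sequences were read, were found on the gene's strand in the TXNIP window and on the other strand (as TGTTTAC) in the second window of ARRDC3 (chr5:91380048-91380347, minus strand), and on either strand in 3.42% of all windows. Capitals mark these matches in the 3 windows below, which are written 5′ to 3′ on the gene's strand.
TXNIP: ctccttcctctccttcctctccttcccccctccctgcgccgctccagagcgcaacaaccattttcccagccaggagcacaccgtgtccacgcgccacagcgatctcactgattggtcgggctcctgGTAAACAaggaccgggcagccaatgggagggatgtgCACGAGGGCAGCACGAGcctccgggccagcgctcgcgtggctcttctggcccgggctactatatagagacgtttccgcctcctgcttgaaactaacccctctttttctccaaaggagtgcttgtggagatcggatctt
ARRDC4: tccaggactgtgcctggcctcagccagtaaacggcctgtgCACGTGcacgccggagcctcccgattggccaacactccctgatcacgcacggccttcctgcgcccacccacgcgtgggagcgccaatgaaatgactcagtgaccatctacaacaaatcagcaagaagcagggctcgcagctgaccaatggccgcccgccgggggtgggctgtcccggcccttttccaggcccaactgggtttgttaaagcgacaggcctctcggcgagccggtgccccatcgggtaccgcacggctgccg
ARRDC3, second start: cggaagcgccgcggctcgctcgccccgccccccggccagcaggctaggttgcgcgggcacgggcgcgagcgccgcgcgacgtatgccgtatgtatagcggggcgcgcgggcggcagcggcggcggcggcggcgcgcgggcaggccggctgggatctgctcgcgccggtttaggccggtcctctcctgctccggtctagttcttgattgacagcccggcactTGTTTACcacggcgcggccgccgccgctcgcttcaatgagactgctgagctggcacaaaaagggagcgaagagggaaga

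The 8 genes spanned a wide range of levels. TXNIP (Entrez gene 10628, GRCh38 chromosome 1, 145992435 to 145996579, minus strand) had authors' FPKM values of 83.1, 82.3 and 83.4 in the siNC libraries, which placed it 597th of 24901 genes. MLX followed at 26.8 ± 0.643 FPKM (SD, n = 3), then ARRDC2 at 9.34 ± 0.301, ARRDC1 at 8.00 ± 0.267, ARRDC4 at 6.56 ± 0.365, MLXIP at 5.49 ± 0.118 and ARRDC3 at 3.72 ± 0.240. In siNC no neighbours in this order overlapped. TXNIP held 75.0 ± 0.353% of the summed FPKM of the family in siNC and 75.4 ± 0.506% in siSOWAHA (n = 3 each), and these shares overlapped. ARRDC5, which in the mouse is known for its part in sperm formation, had 2 counts in each siNC library and 2, 1 and 5 in the siSOWAHA libraries. That is too few for the test, and no fold is given for it. The order of levels depends on the gene lengths behind the FPKM values. The count per FPKM, set against that of TXNIP, differed from the ratio of merged exon lengths in GENCODE 29 for each of the other members: 1.38 against 1.05 for ARRDC1, 0.894 against 1.28 for ARRDC2, 1.70 against 1.36 for ARRDC3, 1.23 against 1.12 for ARRDC4, 1.12 against 0.452 for ARRDC5, 4.64 against 3.84 for MLXIP and 0.764 against 1.175 for MLX. With CPM per kilobase of merged exon, chosen after seeing the data, TXNIP (81.2 ± 0.467) and MLX (17.04 ± 0.390) still led in siNC (SD, n = 3). ARRDC1 (10.3 ± 0.374), ARRDC4 (7.03 ± 0.415), MLXIP (6.49 ± 0.123) and ARRDC2 (6.39 ± 0.204) followed. Of these, ARRDC4 overlapped MLXIP and MLXIP overlapped ARRDC2, while ARRDC3 (4.53 ± 0.281) was again below them all without overlap. The MLXIP entry used is itself placed on a scaffold in the deposited table, not on chromosome 12, so its counts are uncertain.

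**Figure D1:**
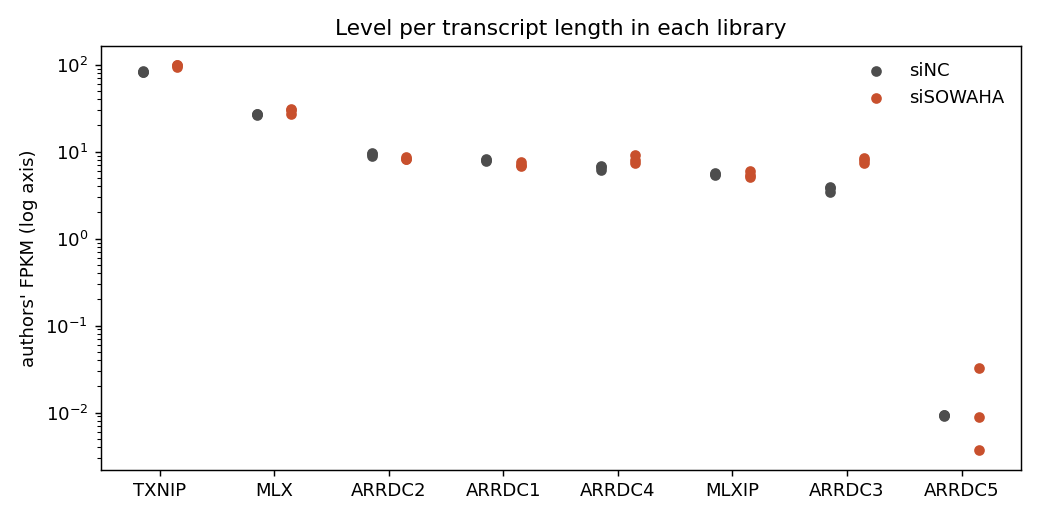
Authors' FPKM of the 8 genes in each library, on a log axis, ordered by the siNC mean. Each point is 1 library. TXNIP is near 83 in siNC, and the siSOWAHA mean of ARRDC3 lies between those of ARRDC2 and ARRDC1, while in siNC ARRDC3 is lower than both.

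ARRDC3 was the member that differed most between the groups. It encodes an adaptor reported to lower integrin beta 4, and lies on GRCh38 chromosome 5, 91368631 to 91383317, minus strand (Entrez gene 57561). It had CPM values (counts scaled to library size) of 23.0, 20.8 and 23.4 in siNC replicates 1 to 3 and 48.8, 51.7 and 45.4 CPM in siSOWAHA replicates 1 to 3. The 3 siSOWAHA libraries were all above the 3 siNC libraries, with means of 22.4 ± 1.39 and 48.7 ± 3.16 CPM (SD, n = 3 each). The log2 fold change was 1.12 (SE 0.068), a 2.18-fold difference, with rank 391 by size among the 17693 genes tested. This difference was known when the genes were chosen, so it and those of the other members are given as descriptions, with no p-value. The antisense gene ARRDC3-AS1, which shares 145 exon bases with ARRDC3 in GENCODE 29, had 2.24 ± 0.389 and 2.10 ± 0.479 CPM and did not pass the test.

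TXNIP was higher in siSOWAHA by less. It had 296, 292 and 295 CPM in siNC and 349, 355 and 339 CPM in siSOWAHA, and the groups did not overlap. The log2 fold change was 0.24 (SE 0.029), a 1.18-fold difference. The group means were 294 ± 1.69 and 347 ± 8.04 CPM (SD, n = 3 each). Its fitted biological coefficient of variation was 0.0469, with a median of 0.0484 for the 500 genes nearest in level. The fit draws this value toward that of genes at a like level, so nothing is read from their closeness.

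ARRDC4, which like TXNIP is reported to lower glucose uptake (Entrez gene 91947, chromosome 15, 97960703 to 97973833, plus strand), had 29.3, 29.9 and 26.7 CPM in siNC and 34.7, 40.0 and 32.7 CPM in siSOWAHA. Libraries of one group were further apart than for TXNIP, with siSOWAHA replicate 2 the highest, but the groups did not overlap. The log2 fold change was 0.32 (SE 0.077). It was 0.24 without siSOWAHA replicate 2 and 0.28 without siNC replicate 3, and in either case ARRDC4 no longer passed the edgeR threshold.

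ARRDC1 and ARRDC2 were on the other side. ARRDC1, which buds vesicles from the plasma membrane together with TSG101 (Entrez gene 92714, chromosome 9, 137605641 to 137615360, plus strand), had 39.8, 40.4 and 37.7 CPM in siNC and 37.7, 34.9 and 33.6 CPM in siSOWAHA. The groups touched at 37.7 CPM, and the log2 fold change of -0.15 (SE 0.061) did not pass the threshold, though it did without siSOWAHA replicate 1 (-0.20). ARRDC2 (Entrez gene 27106, chromosome 19, 18001124 to 18014102, plus strand) had 30.4, 28.6 and 29.9 CPM in siNC and 27.5, 26.6 and 26.2 CPM in siSOWAHA. Its groups did not overlap, and its log2 fold change of -0.15 (SE 0.064) did not pass. ARRDC1 shares 183 exon bases with AL590627.2, a transcript on the same strand, from which strand cannot separate its reads, so its counts are uncertain. It also shares 29 with its antisense gene ARRDC1-AS1, which had 13.4 ± 0.950 and 15.0 ± 1.20 CPM, and ARRDC2 shares 442 with an unconfirmed transcript on the other strand. The libraries kept strand, per the labels' protocols, but the strand setting of the counting is not given in the sources used here.

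Of the glucose-sensing factors, MLX (Entrez gene 6945, chromosome 17, 42567100 to 42573203, plus strand) had 70.8, 74.1 and 72.8 CPM in siNC and 84.9, 83.6 and 74.6 CPM in siSOWAHA. siSOWAHA replicate 3 lay just above the siNC libraries and the other two well above them. The log2 fold change was 0.16 (SE 0.051). MLX shares 770 exon bases with PSMC3IP on the other strand, so its counts are uncertain; PSMC3IP averaged 16.3 CPM in siNC and 17.8 CPM in siSOWAHA and did not pass the test. MLXIP (Entrez gene 22877, chromosome 12, 122078756 to 122147344 in RefSeq GRCh38.p14) had 90.5, 88.5 and 91.9 CPM in siNC and 97.8, 86.0 and 89.4 CPM in siSOWAHA. These overlapped, and the log2 fold change was 0.01 (SE 0.049).

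**Figure D2:**
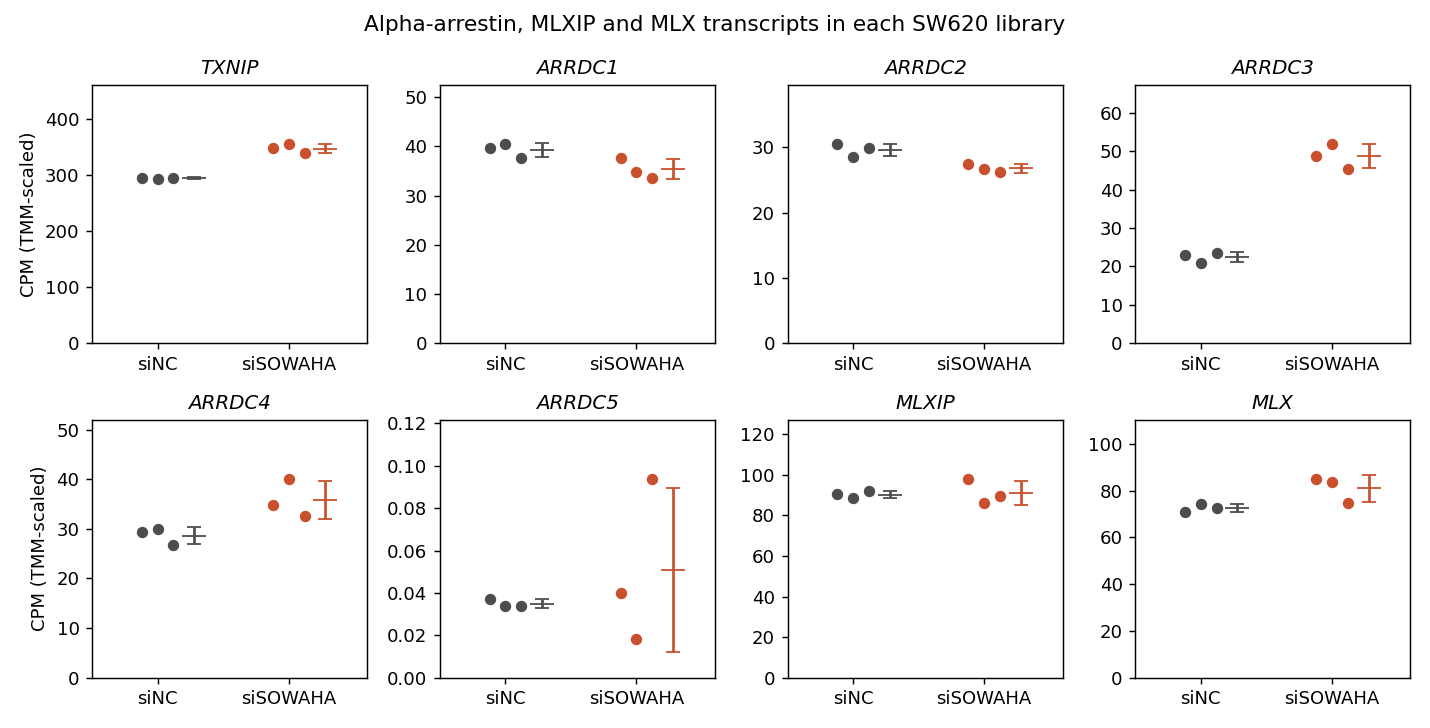
CPM of each of the 8 genes, with 1 point per library and, to its right, the mean with its SD (n = 3 per group); each axis starts at 0 and has its own scale. The ARRDC3 groups are furthest apart, at 20.8 to 23.4 and 45.4 to 51.7 CPM, while those of MLXIP overlap and those of ARRDC5 rest on 1 to 5 counts a library.

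In the fit across 17693 genes, 4 of the 7 members tested passed the edgeR quasi-likelihood test at an adjusted p of 0.05 and were higher (TXNIP, ARRDC3, ARRDC4 and MLX), and 0 were lower. Over all genes tested, 16.9% were called, 9.12% as higher and 7.77% as lower. The groups did not overlap for 5 of the 7, of which 4 were higher and 1 lower, against 33.0% of all genes. On the log2(FPKM + 1) scale, limma called 4 of the 7, TXNIP, ARRDC2, ARRDC3 and ARRDC4, where 20.0% of 12027 genes were called. Since the same contrast was known when the genes were chosen, nothing is read from these counts. MLX lay close to the threshold and did not pass with upper-quartile factors, library totals alone, limma-voom, the replicate block or without siNC replicate 1, siNC replicate 2, siNC replicate 3, siSOWAHA replicate 1 or siSOWAHA replicate 2.

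**Figure D3:**
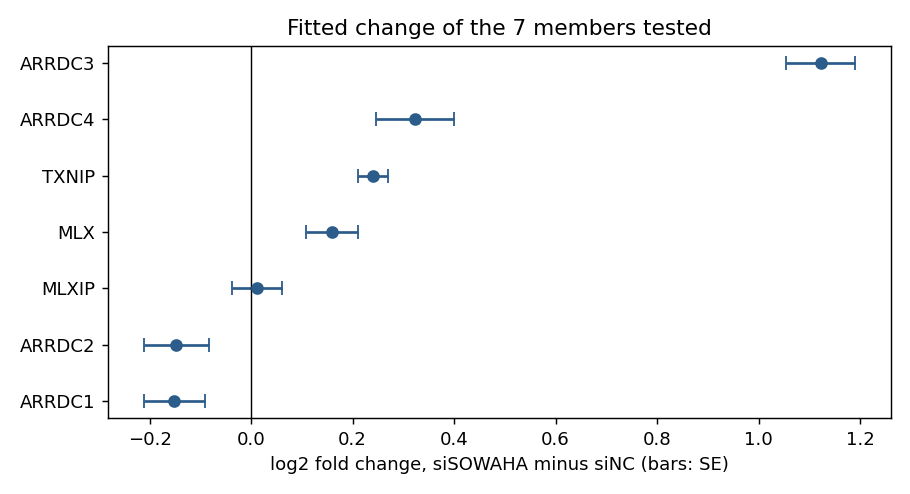
Fitted log2 fold change of the 7 members tested, siSOWAHA minus siNC, with bars of 1 SE. ARRDC3 stands at 1.12, TXNIP, ARRDC4 and MLX between 0.16 and 0.32, MLXIP at 0.01 and ARRDC1 and ARRDC2 at -0.15.

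Ratios within a library do not depend on its scaling. The FPKM ratio of TXNIP to ARRDC3 was 21.8, 23.9 and 21.4 in siNC and 12.1, 11.6 and 12.6 in siSOWAHA, with a wide gap between the groups. The ratio of TXNIP to ARRDC4 was 12.4, 12.04 and 13.6 in siNC and 12.3, 10.9 and 12.8 in siSOWAHA, and these overlapped. The ratio of ARRDC1 to ARRDC2 also overlapped, at 0.858 ± 0.0509 and 0.854 ± 0.0295 (SD, n = 3 each). ARRDC3 had 0.398 ± 0.0147 times the FPKM of ARRDC2 in siNC and 0.961 ± 0.0590 times in siSOWAHA. With merged exon lengths the same ratio was 0.709 ± 0.0257 and 1.71 ± 0.104 (SD, n = 3 each), so its size depends on the lengths used, while the groups stayed apart. By the deposited FPKM, ARRDC2, ARRDC4, ARRDC3 and ARRDC1 came in that order in siSOWAHA, at 8.34, 8.11, 8.01 and 7.13 FPKM. ARRDC2 overlapped ARRDC4, ARRDC4 overlapped ARRDC3, and ARRDC3 overlapped ARRDC1. Per kilobase of merged exon the order was ARRDC3, ARRDC1, ARRDC4 and ARRDC2, at 9.87, 9.26, 8.79 and 5.77 CPM, with ARRDC2 below the rest. The summed level of the family was 412 to 418 CPM in siNC and 477 to 508 CPM in siSOWAHA.

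Among the 5 genes whose values over the 6 libraries were most like those of ARRDC3 were RAMP1, AMBP, AKR1C2 and FOXP2. Likeness was the root mean square difference between log2 CPM values, each set against the gene's own siNC mean, over 11310 genes averaging 5 CPM or more. It was 0.06 for RAMP1, which went from 8.83 to 19.6 CPM. For TXNIP the closest were MEX3A, ABCC2, PDE8A, TBL1XR1 and DGKE, at 0.013 to 0.018. With 2 groups, this measure mostly ranks genes by the size of their difference between the groups.

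The genes around the family were described by lists written with earlier results of these data known. Adjusted p-values of list genes are therefore descriptions too, and not independent evidence. Over all genes tested, 9.12% were called as higher and 7.77% as lower, and the count of each list is to be set beside these shares. Of 8 transcripts of surface proteins reported as alpha-arrestin cargo, 0 rose and 3 fell by edgeR (1 and 3 at an unadjusted p of 0.05). The list median was -0.12 on the log2 scale against -0.01 over all genes tested. These are RNA levels, and removal of the cargo proteins from the cell surface was not measured. The glucose transporter SLC2A1, a cargo of TXNIP, had 1045, 1091 and 1089 CPM in siNC and 824, 762 and 779 CPM in siSOWAHA, with the 3 siSOWAHA libraries all lower. Its log2 fold change was -0.45 (SE 0.030; edgeR adjusted p = 1.09e-07). ITGB4, the integrin subunit reported as cargo of ARRDC3, had 140, 147 and 155 CPM in siNC and 119, 107 and 116 CPM in siSOWAHA (log2 fold change -0.37, SE 0.048; edgeR adjusted p = 6.84e-05). The receptor NOTCH1 fell by 0.19 on the log2 scale (SE 0.048; edgeR adjusted p = 0.0138), a call lost without siNC replicate 3 (0.0753), siSOWAHA replicate 2 (0.062) or siSOWAHA replicate 3 (0.0682).

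In the thioredoxin list, which holds DDIT4 and NLRP3 beside genes of the thioredoxin system, 2 of 8 genes tested rose and 2 fell by edgeR (list median -0.02). NLRP3 was not tested, while DDIT4 is among the 8 and enters the median. Thioredoxin itself, TXN, the protein that TXNIP inhibits, had 275, 283 and 269 CPM in siNC and 293, 321 and 315 CPM in siSOWAHA, with no overlap (log2 fold change 0.17, SE 0.036; edgeR adjusted p = 0.00441). Nucleoredoxin, NXN, rose by 0.19 (SE 0.048; edgeR adjusted p = 0.0127). The thioredoxin reductases TXNRD1, in the cytosol, and TXNRD2, in mitochondria, fell by 0.12 (SE 0.032; edgeR adjusted p = 0.0162) and 0.20 (SE 0.059; edgeR adjusted p = 0.0266). DDIT4, a stress-induced gene of this list, had 105, 107 and 124 CPM in siNC and 97.3, 87.7 and 74.7 CPM in siSOWAHA, without overlap, and its log2 fold change of -0.37 (SE 0.114) did not pass (edgeR adjusted p = 0.0827). DESeq2 and limma-voom each called 3 genes of the list as lower. Calls of NXN were lost without siNC replicate 1 (0.0652), siNC replicate 3 (0.0523) or siSOWAHA replicate 3 (0.0584). Calls of TXNRD1 were lost without siNC replicate 1 (0.0755), siNC replicate 2 (0.0548), siSOWAHA replicate 1 (0.0508) or siSOWAHA replicate 3 (0.0929). The call of TXNRD2 was lost under the replicate block (0.0534) and without any library other than siNC replicate 3 (0.0508 to 0.122).

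Of the MYC, MAX and MLX network besides MLX and MLXIP, 1 of 10 genes tested rose and 0 fell by edgeR (1 and 1 at an unadjusted p of 0.05, list median 0.05). It was MYC, at 388 ± 3.79 and 453 ± 20.9 CPM (log2 fold change 0.22, SE 0.033; edgeR adjusted p = 2.37e-04). MLXIPL, the ChREBP gene, had 27.9, 27.5 and 25.0 CPM in siNC and 24.9, 22.2 and 23.5 CPM in siSOWAHA. Its log2 fold change of -0.19 (SE 0.074) did not pass (edgeR adjusted p = 0.0959). Of 10 carbohydrate-response genes tested besides the members, 1 rose and 0 fell by edgeR (2 and 1 at an unadjusted p of 0.05, list median -0.02). It was RGS16, a regulator of G-protein signalling, at 4.46 ± 0.595 and 7.96 ± 0.655 CPM (log2 fold change 0.83, SE 0.145; edgeR adjusted p = 9.38e-04). The lipogenic genes FASN, ACACA and SCD did not pass, with log2 fold changes of -0.08, -0.02 and -0.01, and PKLR, the liver pyruvate kinase, was at 0.355 ± 0.202 and 0.264 ± 0.0957 CPM.

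Among NEDD4-family ligases, the partners of the PPxY motifs, 0 of 8 genes tested rose and 1 fell by edgeR (also 0 and 1 at an unadjusted p of 0.05, list median 0.02). SMURF2 had 50.3, 51.7 and 50.3 CPM in siNC and 40.7, 37.8 and 39.7 CPM in siSOWAHA (log2 fold change -0.37, SE 0.051; edgeR adjusted p = 1.39e-04). ITCH, reported to bind TXNIP, was at 0.07 (SE 0.039) and did not pass, and NEDD4 and WWP1 were at 0.03 and 0.01. Of the other arrestin-fold genes, 2 of 6 tested rose and 0 fell by edgeR (also 2 and 0 at an unadjusted p of 0.05, list median 0.07). ARR3, among the 6, averaged only 0.169 CPM in siNC and 0.155 CPM in siSOWAHA. The beta-arrestin ARRB1 had 97.1, 94.7 and 97.8 CPM in siNC and 131, 135 and 139 CPM in siSOWAHA, clear of each other (log2 fold change 0.48, SE 0.039; edgeR adjusted p = 6.2e-07). VPS26B, a retromer subunit, rose by 0.30 (SE 0.042; edgeR adjusted p = 1.61e-04), while ARRB2 was at 0.08 (SE 0.067). Of the ESCRT-I and budding genes with which ARRDC1 works, 0 of 11 tested passed by edgeR (list median -0.01). At an unadjusted p of 0.05, 2 were higher and 0 lower, DESeq2 called 1 as higher and limma-voom 0, and TSG101 was at 0.04 (SE 0.050). Of the neighbouring and antisense genes of the members, 0 of 8 tested passed by edgeR, DESeq2 or limma-voom (list median 0.07), and 1 was higher at an unadjusted edgeR p of 0.05.

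**Figure D4:**
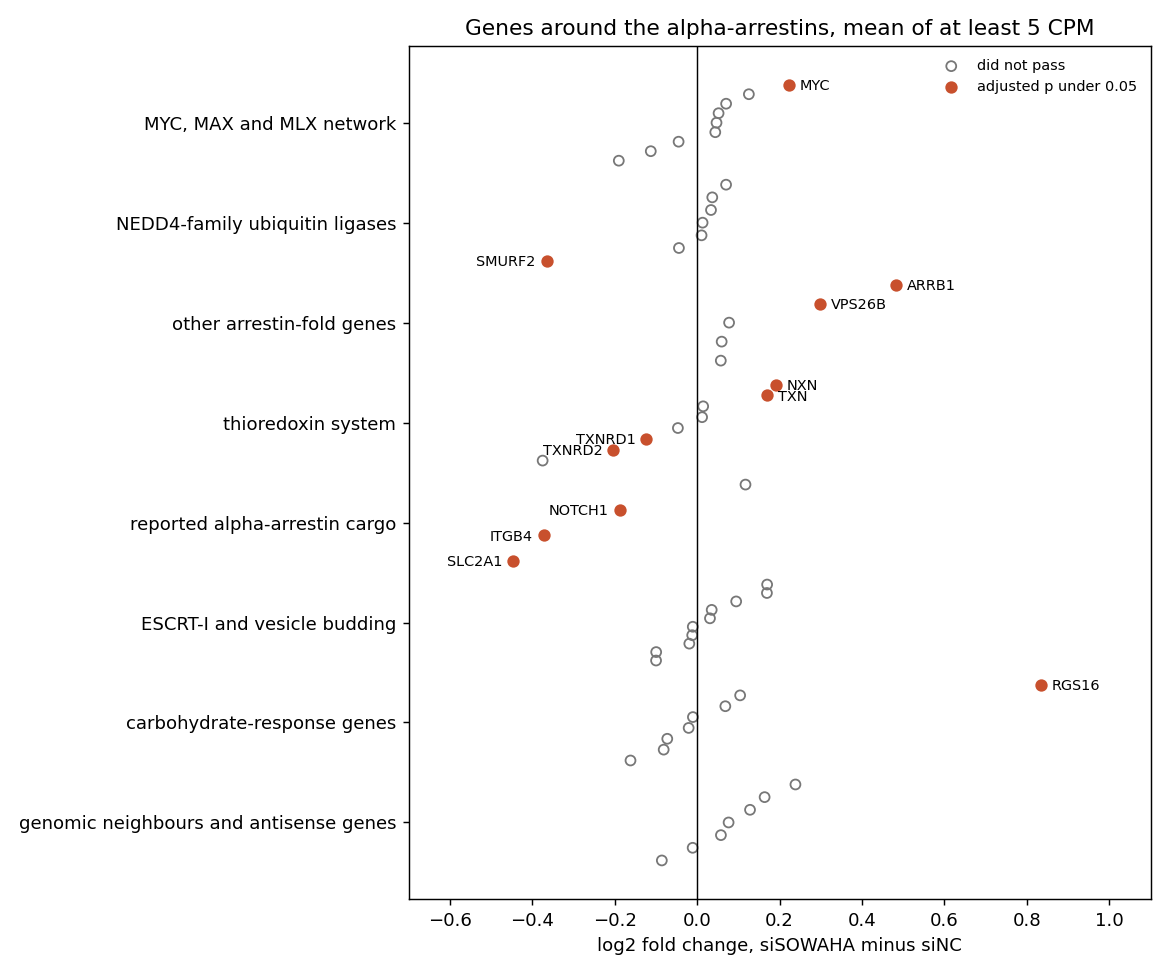
Log2 fold change, siSOWAHA minus siNC, of the 58 genes in the 8 lists that averaged 5 CPM or more. Filled points passed the edgeR test at an adjusted p of 0.05 and are named. The filled points of reported cargo lie below 0, from -0.45 to -0.19, and those of the other arrestin-fold genes above it, at 0.30 and 0.48.

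Facts of the whole series bear on these values. Libraries held 49937395 to 59474396 counts, and SOWAHA itself went from 35.2 ± 3.72 to 7.78 ± 1.08 CPM. The cells carried epithelial transcripts, with EPCAM at 398 CPM in both groups, but KRT20 and LGALS4 were under 1 CPM. Of 10 colorectal epithelial markers tested, 0 rose and 5 fell by edgeR. Over all genes tested, 9.12% were called as higher and 7.77% as lower. The epithelial markers summed to 9523 to 9827 CPM in siNC and 8883 to 8992 CPM in siSOWAHA. Fibroblast markers summed to 69.7 to 76.1 and 79.5 to 92.1 CPM, mostly from LUM (61.1 and 76.4 CPM), while COL1A1 went from 9.18 to 6.96 CPM and PDGFRB from 2.13 to 1.55 CPM, both without overlap and neither past the edgeR threshold, and COL3A1 averaged 0.0452 and 0 CPM. Of the 4 fibroblast markers tested, 1 rose (LUM) and 0 fell by edgeR. Leukocyte markers summed to 8.46 to 9.29 and 6.54 to 8.84 CPM, with PTPRC and CD3E at 0, and endothelial markers to 1.70 to 2.73 and 1.61 to 2.88 CPM, with CDH5 at 0. The part of these shifts in the members' values was not tested, and in bulk RNA fewer cells of a kind and less RNA per cell cannot be told apart.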

How the data were processed

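Poly(A) RNA was sequenced in 3 siNC and 3 siSOWAHA libraries, grouped by sample title. The submitters' processing notes name cutadapt 1.9, FastQC and the build GRCh38, with aligner, counting program and strand setting not given in the sources used here. As deposited, the tables hold raw counts for 39554 gene IDs, and FPKM values for 24901 genes beside the same counts, identical for 24901 of them. IDs were given RefSeq symbols.

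Counts were tested with edgeR 4.0.16 in R 4.3.3 (TMM factors after filterByExpr, robust quasi-likelihood F test, two-sided, Benjamini-Hochberg adjustment over 17693 genes), and the steps were tested on simulated data. The SE is the log2 fold change over the square root of F. FPKM values were tested with limma 3.58.1 on log2(FPKM + 1) where at least 3 libraries reached an FPKM of 1. Alternatives used DESeq2 1.42.0, limma-voom, other scaling factors, other filters, the replicate block and each library left out, and merged exon lengths were added after seeing the data. Pairs of replicates gave a chi-square over degrees of freedom of 7.82 to 14.0, above sampling noise, so each was kept. Members, lists and tests were chosen with earlier results of these data known. Named genes were the 8 members, up to 4 called genes of each list, TXN and MLXIPL, and the 5 genes most like TXNIP and ARRDC3; others are given as examples that did not pass. Some genes that met these rules are not reported here. Protein sequences were not used here.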

Additional observations from a re-analysis of the deposited data

How the results depend on the processing

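TXNIP and ARRDC3 kept their direction and side of the edgeR threshold in each of 14 alternatives (0.22 to 0.26 and 1.07 to 1.17 on the log2 scale). MLX did not pass with upper-quartile factors (0.14), library totals alone (0.14), limma-voom (0.16) or the replicate block (0.16). Leaving out a library gave 0.12 to 0.22 for MLX, 0.24 to 0.39 for ARRDC4 and -0.20 to -0.11 for ARRDC1, and the cause was not tested. MLXIP, never called, ranged from -0.04 to 0.05. Calls over all genes numbered 2988, and 1978 to 2678 with 1 library left out, where the smallest number came without siNC replicate 3. Called genes of the thioredoxin list that fell numbered 2, 3 with DESeq2 and with limma-voom, and 1 under the replicate block. With a library left out they numbered 0 to 2, and those that rose 1 to 2. ESCRT-I genes that rose numbered 1 with DESeq2 and 1 with a filter of 1 CPM. Carbohydrate-response genes that rose numbered 1 to 2 and those that fell 0 to 1 with a library left out. On log2(FPKM + 1), 2408 of 12027 genes were called, 1423 with no filter and 1408 to 2020 with a library left out. ARRDC2 (-0.15) was called there, but not with no filter (-0.15) or the replicate block (-0.15). Its call was also lost with each of the 6 libraries left out (-0.17 to -0.13). ARRDC4 (0.27) was not called with no filter (0.27) or, apart from siSOWAHA replicate 3, with a library left out (0.20 to 0.32). ARRDC1 ranged from -0.19 to -0.12 and MLX from 0.10 to 0.19. Neither was called in the main fit on this scale, and each was called in 1 alternative. Replicate numbers did not pair the libraries: deviations of same-numbered libraries correlated at -0.256, -0.036 and 0.007, and 0 of 6 libraries were closest to their own number. The replicate block gave 2599 calls over all genes. With 1 to 5 counts a library, ARRDC5 could not be compared at this depth.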

Other observations

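Besides TXNIP, 26 genes held the pair of E-box-like units in a promoter window, among them PKLR, the liver pyruvate kinase gene known for its carbohydrate response element. Of these, 18 were tested: 3 rose and 1 fell by edgeR, with a median log2 fold change of -0.02. Over all genes tested 9.12% were called as higher and 7.77% as lower, and nothing is read from so small a count.

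The longest annotated 3' UTRs of the 8 members (GENCODE 29) were searched for 4 heptamers, namely AGATTTC, the overlapping heptamer GATTTCA, the unrelated heptamer TCGGAGA and its overlapping heptamer CGGAGAA, which an earlier look at these data had found in genes that differed between the groups. A match was found in 1 of the 8, MLX, which carries AGATTTC in capitals in attcaagcctcAGATTTCtgctcatgatc, and at least 1 of the 4 was found in 28.7% of 13335 genes tested with such a UTR. The 3' UTRs of TXNIP and ARRDC3, of 1416 and 2676 bases, held none of the 4. Because the heptamers were taken from these same data, nothing is read from their presence or absence.

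The FPKM ratio of MLX to MLXIPL ranged from 4.10 to 4.71 over the siNC libraries and from 5.13 to 6.10 over the siSOWAHA libraries, with no overlap. Its size depends on the gene lengths behind the FPKM values, and the counts of MLX are uncertain. MLX lay close to the edgeR threshold and MLXIPL did not pass it.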
